A study of Mus musculus with 12 samples.

Results

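The replication-dependent histone genes encode the linker histones (H1) and the core histones (H2A, H2B, H3 and H4) that package newly made DNA. The family was picked with earlier results of these data known, and its members were chosen by total count, as the protein-coding genes with symbols beginning Hist1h, Hist2h, Hist3h or Hist4h that held a total of at least 50 counts over 12 libraries. This gave 53 of the 55604 genes counted, and 53 of 67 genes with such symbols: 5 of class H1, 10 of H2A, 16 of H2B, 10 of H3 and 12 of H4. The rule for members used no difference between groups. Hist1h2ag, with 76 counts in total, lay just inside the minimum, and Hist1h2af, with 44, just outside. Of the 14 genes left out, 6 had no count in any library, which allows up to 0.00754 CPM (counts scaled to library size) over the 12 libraries, counting error only. Most members lie on chromosome 13 (46 genes), with 4 on chromosome 3, 2 on chromosome 11 and 1 on chromosome 6.

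Replication-dependent histone mRNAs are made mainly in S phase, from clustered genes without introns, under the coactivator NPAT. In animals they end in a conserved stem-loop in place of a poly(A) tail. Stem-loop binding protein (SLBP) holds this structure, and the small nuclear RNA U7 guides the cut behind it. Some of these genes are also read through to a poly(A) signal further downstream, which is known from cells that have left the cycle. A library made by poly(A) selection counts the tailless form incompletely. The design text calls these mRNA libraries, and the sources used here do not say how mRNA was selected.

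The cells were bone marrow-derived macrophages of C57BL/6 mice, differentiated in 20 ng/ml M-CSF for use at day 7. One group received corpses of B16-F10 melanoma cells labelled STC1OE (STC1 is a secreted glycoprotein), another received control B16-F10 corpses, and macrophages alone received none. Each group had 4 libraries from experiments that the design text calls independent. Corpses were given at 5 per macrophage, and those not bound were rinsed off after 20 h. Corpse and macrophage RNA both come from mouse, so a read of a histone gene cannot be assigned to either.

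Libraries held 28488441 to 39981074 assigned counts, of which 0.11% fell on histone members. Mouse Stc1 had 2 to 7 counts in the STC1OE-corpse libraries, 0 to 3 with control corpses and 0 to 3 in macrophages alone. All 8 macrophage markers were tested, and 3 rose and 5 fell in each corpse group against macrophages alone. Their sum was 13100 to 14200 CPM with STC1OE corpses, 13200 to 14900 CPM with control corpses and 15600 to 16400 CPM in macrophages alone. Lyz2 held most of the sum in each group. Of 14 melanocyte markers 9 were tested, 8 rose in each corpse group over macrophages alone, and STC1OE corpses gave lower levels than control corpses in 6. The 14 markers summed to 11.7 to 13.1 CPM with STC1OE corpses, 17.3 to 22.1 CPM with control corpses and 6.97 to 7.61 CPM in macrophages alone. Tyr, Oca2 and Pax3 had no count in macrophages alone, where Erbb3 (4.57 CPM) and Slc24a5 (1.9 CPM) held most of the sum. These last genes were not called between the corpse groups. Tyrp1 averaged 1.05 CPM with STC1OE corpses, 4.09 CPM with control corpses and 0.0312 CPM alone. The 7 neutrophil markers, of which 4 were tested and fell in both corpse groups, summed to 4.11 to 4.97 CPM with STC1OE corpses, 3.65 to 5.04 CPM with control corpses and 14.8 to 16.7 CPM alone. The 6 B cell markers, 3 of them tested, summed to 4.35 to 4.73 CPM with STC1OE corpses, 4.59 to 5.31 CPM with control corpses and 14.5 to 15.8 CPM alone. Pax5, one of them, had no count with control corpses. Most of the B cell sum in macrophages alone was Ighm, at 12.5 CPM there, 2.5 CPM with STC1OE corpses and 2.55 CPM with control corpses. Cd79a passed in no comparison, and Cd79b only with STC1OE corpses against macrophages alone (log2 −0.36, adjusted p = 0.0444, edgeR). The 6 fibroblast markers, 3 of them tested, summed to 13.9 to 15.2 CPM with STC1OE corpses, 12.5 to 16.9 CPM with control corpses and 17.8 to 23.9 CPM alone. The 6 T and NK cell markers and the 6 erythroid markers summed to at most 1.37 CPM in any library. The part of these cells in the histone counts was not tested. Libraries 1 and 2 resembled each other, as did libraries 3 and 4, in the STC1OE group (chi-square per degree of freedom 4.27 and 2.81, against 11.2 to 17.2 for pairs across) and in macrophages alone. With control corpses only libraries 3 and 4 stood out (2.73). No label gives a reason, so counts of calls are also given for each pair alone.

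The ends of the annotated transcripts show what marks these genes. A stem-loop of 16 bases that matches the known histone consensus followed the stop codon in 40 of 53 members, in 8 spellings, and 22 members shared one spelling. The other 13 included Hist2h2be, with 2192 bases annotated after its stop codon, and models that end at the stop codon, such as those of Hist1h3i, Hist1h3h and Hist1h4k. Stem-loops of 5 members that the results turn on are given with 5 bases on either side, the 16 bases in capitals, read 5′ to 3′ on the gene's strand from transcripts of GENCODE M21 (GRCm38).
Hist1h1c, chr13:23739507-23739532, plus strand: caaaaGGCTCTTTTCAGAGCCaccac
Hist1h2bm, chr13:21722501-21722526, plus strand: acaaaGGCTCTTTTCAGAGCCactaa
Hist1h3c, chr13:23745042-23745067, minus strand: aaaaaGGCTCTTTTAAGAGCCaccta
Hist1h4i, chr13:22040961-22040986, minus strand: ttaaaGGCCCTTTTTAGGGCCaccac
Hist3h2a, chr11:58955167-58955192, plus strand: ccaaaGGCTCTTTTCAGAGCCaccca
Hist1h1c, Hist1h2bm and Hist3h2a carried the common spelling, Hist1h3c one with the same stem and a changed loop, and Hist1h4i one with changed stem and loop. After the stem-loop, annotated transcripts ran on for 46 bases in Hist1h2bm and 74 in Hist1h3c, but for 330 in Hist1h4i, 840 in Hist1h1c and 1643 in Hist3h2a. The last 3 ended with the poly(A) signal AATAAA or ATTAAA within their last 50 bases.

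RefSeq promoters (GRCm38.p6, 250 bases before to 50 after the start) were matched for 48 members. The octamer ATTTGCAT, the site that the factor OCT1 is known to bind in H2B promoters, stood on either strand in 5 of 14 H2B and 5 of 10 H2A promoters and in none of the 24 H1, H3 and H4 promoters, against 1.74% of 32851 RefSeq promoters. CCAAT was found in 40 of 48, with all H1, H2A, H2B and H3 promoters and 3 of 11 of H4, against 37.4% of all. TATAAA was found in 29 of 48, against 13.6%. AAACACA, the box described upstream of H1 genes, stood in 4 of 5 H1 promoters, against 7.18%. Motifs were searched on both strands, as letters only. The promoters of Hist1h2bm, which had the largest rise, and of Hist1h1c, the most abundant member that fell, are shown with these motifs in capitals, in either strand's letters.
Hist1h2bm, chr13:21721794-21722093, plus strand: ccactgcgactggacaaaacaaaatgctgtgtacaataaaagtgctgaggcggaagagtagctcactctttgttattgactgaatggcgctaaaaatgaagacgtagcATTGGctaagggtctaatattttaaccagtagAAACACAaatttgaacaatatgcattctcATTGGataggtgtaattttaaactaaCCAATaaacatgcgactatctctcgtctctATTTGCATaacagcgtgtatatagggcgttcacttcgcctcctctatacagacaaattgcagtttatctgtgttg
Hist1h1c, chr13:23738557-23738856, plus strand: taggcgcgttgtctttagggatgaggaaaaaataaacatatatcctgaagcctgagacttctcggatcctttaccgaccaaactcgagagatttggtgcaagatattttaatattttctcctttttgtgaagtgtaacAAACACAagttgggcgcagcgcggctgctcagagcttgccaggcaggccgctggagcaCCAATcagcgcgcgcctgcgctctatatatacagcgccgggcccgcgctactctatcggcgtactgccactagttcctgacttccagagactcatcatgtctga
The Hist1h2bm window held ATTTGCAT, CCAAT and AAACACA, and that of Hist1h1c held CCAAT and AAACACA. Neither held TATAAA.

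Histone mRNA levels differed in both directions between the corpse groups and macrophages alone, by less than 2-fold in each called member. The share of members called in either direction was near that of all tested genes, as given below. Linker histone Hist1h1c and a set of core genes with long annotated ends fell with both kinds of corpse. Some H2B genes on chromosome 13 rose, while the most counted of them, Hist1h2bc, fell with both. Some H3 genes were lower with STC1OE than with control corpses. Of 53 members, 50 passed the filter on low counts and were tested among 16406 genes by edgeR's quasi-likelihood test with Benjamini-Hochberg adjustment, as were all adjusted p-values below. Bulk counts cannot tell fewer cells of a kind from less RNA per cell.

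With STC1OE corpses against macrophages alone, 5 members rose and 15 fell, where 21.4% of all tested genes rose, 22.4% fell and 43.8% did either. With control corpses against macrophages alone, 13 rose and 9 fell, where 19.7% of all tested genes rose, 20.4% fell and 40.1% did either. Both comparisons use the same macrophage-alone libraries. The median log2 fold change of tested members was −0.12 with STC1OE corpses and −0.02 with control corpses, beside −0.027 and −0.00078 over all tested genes in those comparisons. A total of 4 members rose and 8 fell with both kinds of corpse, and none moved in opposite directions. The shares of all tested genes that did so were not counted. Between STC1OE and control corpses no member was higher and 6 were lower, where 3.37% of all tested genes were higher, 2.11% lower and 5.48% either. At an unadjusted p below 0.05, edgeR put 2 members higher and 17 lower there. The share of all tested genes below that limit was not counted, here or for the classes below. DESeq2 called 0 members higher and 6 lower there, where it called 753 and 268 of 11895 genes. Libraries of the groups did not overlap in 3 members higher and 10 lower with STC1OE corpses against macrophages alone (19.8% and 20.2% of all tested genes), in 9 higher and 6 lower with control corpses (18.4% and 18.9%), and in 1 higher and 5 lower between STC1OE and control corpses (5.91% and 4.85%). By estimate alone, called members past 1.2-fold numbered 11 with STC1OE corpses, 13 with control corpses and 4 between the corpse groups. The share of all tested genes past it was not counted. A test against 1.2-fold left 0 higher and 4 lower with STC1OE corpses, where it left 904 and 1209 of all 16406 genes. With control corpses it left 1 and 4 (738 and 950 of all genes), and between the corpse groups 0 and 0 (2 and 2).

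Scaling by the total of assigned counts alone gave 2 higher and 20 lower with STC1OE corpses, 9 and 11 with control corpses, and 0 and 13 between them. Over all 16406 genes it gave 2386 higher and 5111 lower with STC1OE corpses, 2792 and 3796 with control corpses, and 184 and 902 between them. Replicates 1 and 2 alone gave 2 higher and 9 lower with STC1OE corpses, 8 and 6 with control corpses and 0 and 1 between them. Of all 16508 genes in that fit, 2257 and 2395, 1999 and 2093, and 27 and 6 were called in these comparisons. Replicates 3 and 4 alone gave 6 and 14 with STC1OE corpses, 13 and 11 with control corpses and 2 and 11 between them. Of all 16576 genes there, 3288 and 3296, 2842 and 3023, and 1299 and 627 were called. The count of 5 higher with STC1OE corpses was 9 without STC1OE-corpse replicate 2, and 3 without STC1OE-corpse replicate 3 or macrophage-alone replicate 1. Over all genes 3613, 3443 and 3522 were higher in those fits, and 3518 in the main fit.

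**Figure D1:**
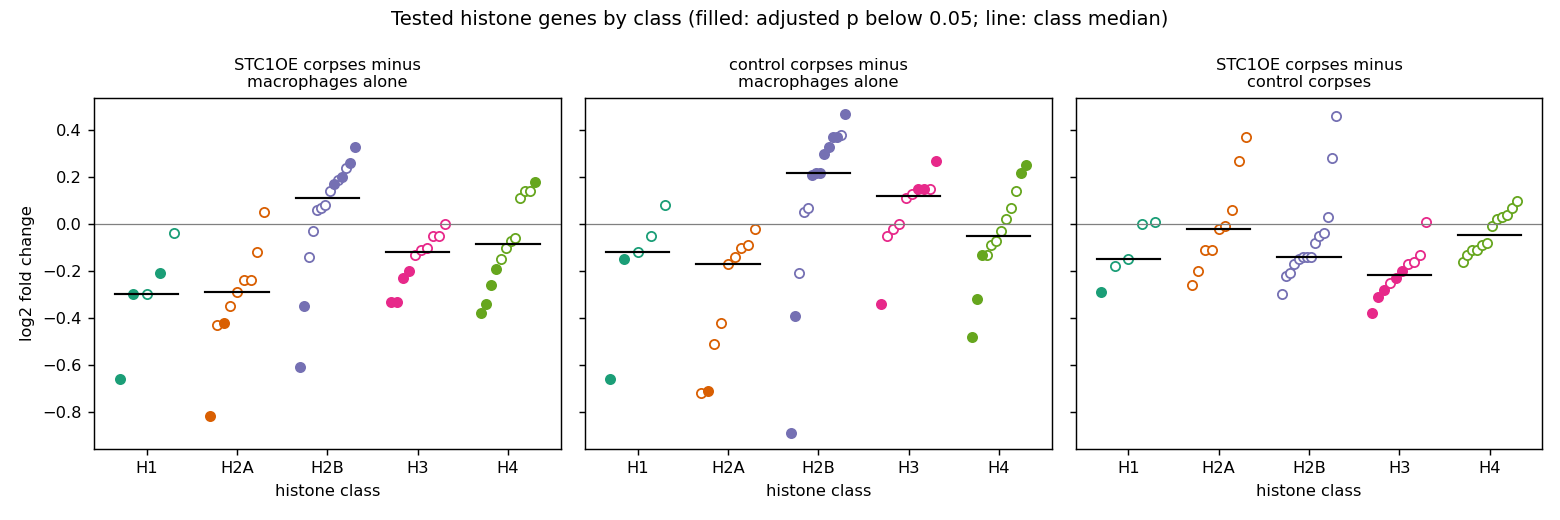
Log2 fold change of each tested histone gene, by class, in 3 panels for STC1OE corpses minus macrophages alone, control corpses minus macrophages alone, and STC1OE minus control corpses. Filled points passed an adjusted p of 0.05 and black lines are class medians: the H2B median lies at 0.11 and 0.22 in the first panels, and the H3 median at −0.22 between the corpse groups.

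Summed over members, the level was 1030 ± 51.4 CPM with STC1OE corpses, 1110 ± 49.6 CPM with control corpses and 1150 ± 47.0 CPM in macrophages alone (SD, n = 4 each). H1 was the class whose sum lay apart from macrophages alone in both corpse groups: 250, 243, 274 and 274 CPM with STC1OE corpses, 281, 268, 276 and 276 CPM with control corpses, against 318, 355, 347 and 344 CPM. The H3 sum was 205 ± 12.4 CPM with STC1OE corpses, 240 ± 16.2 CPM with control corpses and 225 ± 9.62 CPM in macrophages alone, and the groups overlapped. H2B gave 225 ± 14.1 CPM with STC1OE corpses, 237 ± 15.1 CPM with control corpses and 222 ± 6.79 CPM alone. H4 gave 332 ± 15.7 CPM with STC1OE corpses, 343 ± 13.7 CPM with control corpses and 347 ± 20.1 CPM alone, and in both classes the groups overlapped. H2A held the smallest part, 10.8 ± 0.649 CPM with STC1OE corpses, 11.4 ± 0.987 CPM with control corpses and 14 ± 1.4 CPM alone, or 1.05%, 1.03% and 1.22% of member CPM in these groups. These sums are descriptions without a test.

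**Figure D2:**
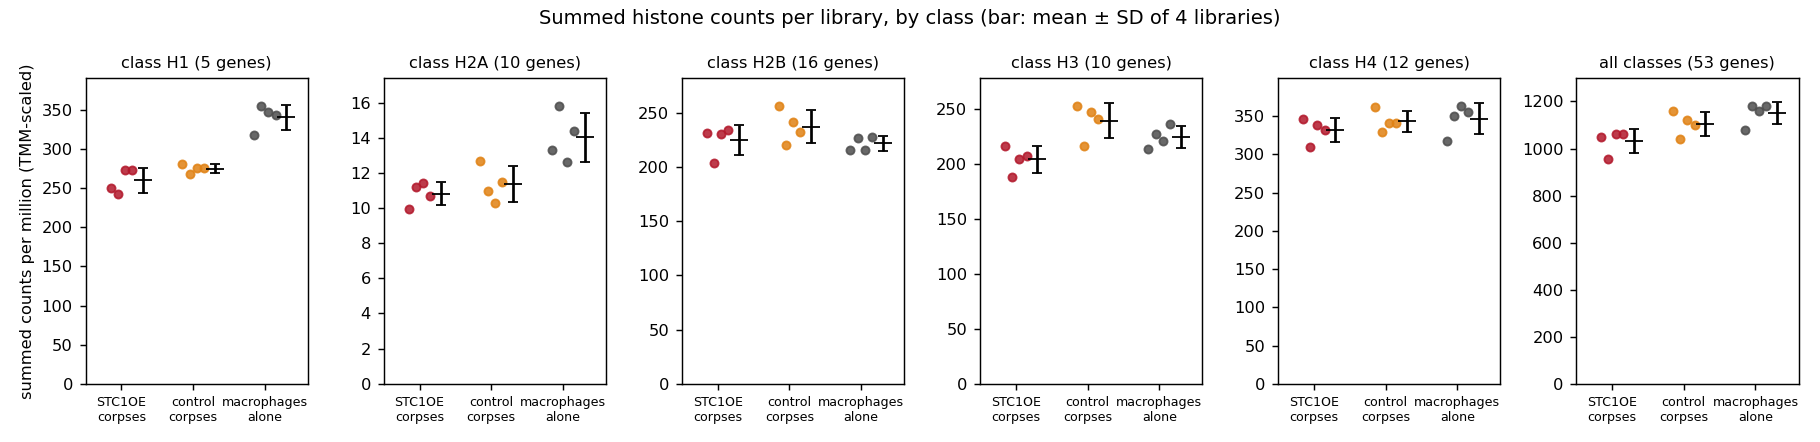
Summed TMM-scaled CPM of the members of each class in every library (points; bar, mean ± SD of 4 libraries), with STC1OE corpses at left, control corpses in the middle and macrophages alone at right. The H1 sums of both corpse groups (243 to 274 and 268 to 281 CPM) lie below those of macrophages alone (318 to 355 CPM), and the H2B, H3 and H4 sums overlap.

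Levels per kilobase of annotated exon depend on where each gene's model ends. On this scale the mean over the 12 libraries was highest for Hist1h4k at 115 CPM per kb. Hist1h4f followed at 95.4, Hist1h4h at 88.9, Hist1h3i at 76.6 and Hist1h1c at 76.3 CPM per kb. The models of Hist1h4k (312 bases) and Hist1h3i (411 bases) end at the stop codon. Only 46.6% and 47.3% of their 150-base windows occur in no other gene, so their levels are uncertain. Hist1h1d, with a model of 7425 bases, came to 6.65 CPM per kb at a mean of 49.4 CPM. Windows found in no other gene made up 8.25% to 100% of a member's windows, with class medians of 100% for H1, 63.5% for H2A, 77.2% for H2B, 73.6% for H3 and 90.0% for H4. Where windows are shared, the level of a single copy is uncertain.

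H1 linker histones bind the DNA between nucleosomes and compact chromatin. None of the 5 rose in any comparison, at an unadjusted p below 0.05 or by DESeq2 either. Of all tested genes, 21.4% rose with STC1OE corpses, 19.7% rose with control corpses and 3.37% were higher between the corpse groups. Hist1h1c had 95.5, 97.5, 104 and 102 CPM with STC1OE corpses and 97.1, 98.5, 101 and 100 CPM with control corpses, against 141, 161, 166 and 160 CPM in macrophages alone. All 8 corpse libraries lay below all 4 libraries of macrophages alone, and the corpse groups overlapped. The log2 fold change was −0.66 ± 0.04 (SE) with STC1OE corpses (adjusted p = 5.54e-12, edgeR) and −0.66 ± 0.04 with control corpses (adjusted p = 5.67e-12), about 0.633 and 0.631 of the level in macrophages alone. Every 150-base window of Hist1h1c is its own, and the fall was −0.65 with STC1OE and −0.63 with control corpses in replicates 1 and 2, and −0.67 with STC1OE and −0.70 with control corpses in replicates 3 and 4.

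Hist1h1d had 41.0, 42.4, 46.7 and 47.0 CPM with STC1OE corpses and 49.8, 47.5, 49.5 and 49.9 CPM with control corpses, against 49.3, 58.6, 53.9 and 56.5 CPM in macrophages alone. The STC1OE-corpse libraries lay below all others. It fell by 0.30 ± 0.05 on the log2 scale with STC1OE corpses (adjusted p = 2.06e-05, edgeR) and by 0.15 ± 0.05 with control corpses (adjusted p = 0.0146). The second call was lost without control-corpse replicate 2 or macrophage-alone replicate 2 or 4, with adjusted p between 0.000835 and 0.0702 over the leave-one-out fits. Hist1h1e, the second most counted linker histone, averaged 57.6 ± 3.78, 57.1 ± 1.48 and 59.1 ± 5.45 CPM with STC1OE corpses, with control corpses and alone, and did not pass the test. It overlaps Hist1h2be over 496 bases of exon on one strand.

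Hist1h1a separated the corpse groups. It had 35.8, 28.9, 37.3 and 36.0 CPM with STC1OE corpses, 44.4, 41.3, 40.7 and 42.5 CPM with control corpses and 42.9, 40.5, 39.1 and 37.8 CPM in macrophages alone. All 4 STC1OE-corpse libraries lay below the libraries of the other groups, which overlapped each other. The log2 difference between STC1OE and control corpses was −0.29 ± 0.07 (adjusted p = 0.0175, edgeR), and that between STC1OE corpses and macrophages alone was −0.21 ± 0.07 (adjusted p = 0.0168). The first lost its call without control-corpse replicate 1 (adjusted p 0.00203 to 0.0619 over the leave-one-out fits) and the second without macrophage-alone replicate 1 (0.00661 to 0.0612). Against macrophages alone the STC1OE value was −0.36 in replicates 1 and 2 and −0.07 in replicates 3 and 4, and the call was also lost in a fit on these groups alone. Hist1h1b averaged 24.3 ± 3.58, 27.6 ± 3.32 and 30.2 ± 3.89 CPM with STC1OE corpses, with control corpses and alone, with overlap and no call.

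H2A pairs with H2B in the nucleosome, and per kilobase of exon H2A members averaged at most 4.5 CPM per kb over the 12 libraries, against up to 58 CPM per kb for H2B members. All 10 H2A members overlap an annotated microRNA gene on the opposite strand, which no member of another class does. Those microRNA genes had no counts. Whether counting used strand is not stated in the sources used here, and the part of this overlap in H2A counts was not tested. Of 9 tested H2A genes, 2 fell with STC1OE corpses and 1 with control corpses, and none rose, at an unadjusted p below 0.05 or by DESeq2 either. Among all tested genes 22.4% fell with STC1OE and 20.4% with control corpses, and 21.4% and 19.7% rose.

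Hist3h2a, on chromosome 11, had 1.97, 2.69, 2.41 and 1.83 CPM with STC1OE corpses and 2.28, 2.72, 2.10 and 2.52 CPM with control corpses, against 4.07, 4.32, 3.33 and 4.03 CPM in macrophages alone. Both corpse groups lay below macrophages alone and overlapped each other. Its log2 fold change was −0.82 ± 0.13 with STC1OE corpses (adjusted p = 3.76e-06, edgeR) and −0.71 ± 0.13 with control corpses (adjusted p = 2.71e-05). It shares 708 bases of exon with Trim17 on the same strand. Hist1h2ae averaged 1.28 ± 0.155, 1.53 ± 0.174 and 1.71 ± 0.262 CPM with STC1OE corpses, with control corpses and alone. It fell with STC1OE corpses (log2 −0.42 ± 0.16, adjusted p = 0.0314, edgeR), a call lost without any 1 of 5 libraries: STC1OE-corpse replicates 1 and 2 and macrophage-alone replicates 1, 3 and 4 (adjusted p 0.0106 to 0.107). It was also lost in DESeq2 (adjusted p = 0.0976), which called 1 H2A gene lower there, with no low-count filter (0.0634), and in replicates 1 and 2 (0.21) or 3 and 4 (0.146) alone. Hist1h2ab, Hist1h2ak and Hist1h2ai averaged 1.11 to 2.17 CPM in each group, with overlap and no call.

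H2B, the partner of H2A, was the class with the most members that rose. Of 14 tested genes, 4 rose and 2 fell with STC1OE corpses, and 8 rose and 2 fell with control corpses. The shares of all tested genes were 21.4% and 22.4% with STC1OE corpses, and 19.7% and 20.4% with control corpses. No H2B gene passed between the corpse groups, where 2 were higher and 5 lower at an unadjusted p below 0.05 and DESeq2 called 0. Hist1h2bm had the largest rise. It held 15.4, 13.8, 15.3 and 15.4 CPM with STC1OE corpses and 17.9, 14.9, 17.0 and 15.9 CPM with control corpses, against 12.6, 12, 11.1 and 12.1 CPM in macrophages alone. All corpse libraries lay above all libraries of macrophages alone. The log2 fold change was 0.33 ± 0.06 with STC1OE corpses (adjusted p = 5.93e-05, edgeR) and 0.47 ± 0.06 with control corpses (adjusted p = 2.07e-07), and all of its 150-base windows are its own. Its call with STC1OE corpses was lost in replicates 1 and 2 alone (adjusted p = 0.0583, edgeR).

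Hist1h2bj held 21.4, 18.9, 20.4 and 19.8 CPM with STC1OE corpses and 24.2, 20.8, 24.3 and 20.9 CPM with control corpses, against 17.1, 18.3, 16.1 and 18.4 CPM in macrophages alone. Both corpse groups lay above macrophages alone. It rose by 0.20 ± 0.06 with STC1OE corpses (adjusted p = 0.00552, edgeR) and by 0.37 ± 0.06 with control corpses (adjusted p = 4.12e-06), on the log2 scale. The call with STC1OE corpses was lost with scaling by total counts (adjusted p = 0.0773, edgeR) and in replicates 1 and 2 alone (0.108). Hist1h2be rose by 0.26 ± 0.05 with STC1OE corpses (adjusted p = 5.96e-05) and by 0.30 ± 0.05 with control corpses (adjusted p = 5.91e-06), at 27.6 ± 2.32 CPM with STC1OE corpses, 28.5 ± 1.03 CPM with control corpses and 23.1 ± 0.632 CPM alone, without overlap with macrophages alone. Hist1h2bg rose by 0.17 ± 0.06 with STC1OE corpses (adjusted p = 0.0348) and by 0.22 ± 0.06 with control corpses (adjusted p = 0.00621), with overlapping groups. Its call with STC1OE corpses was lost without any 1 of 6 libraries: STC1OE-corpse replicates 1, 3 and 4 and macrophage-alone replicates 1, 2 and 3 (adjusted p 0.00262 to 0.0922). Scaling by total counts also ended that call (adjusted p = 0.217, edgeR).

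Further H2B genes passed the test with control corpses and not with STC1OE corpses, while no H2B gene passed the test between the corpse groups. Hist1h2bf averaged 10.7 ± 0.998 CPM with STC1OE corpses, 12.5 ± 1.11 CPM with control corpses and 9.73 ± 0.691 CPM alone, with log2 fold changes against macrophages alone of 0.14 ± 0.08 for STC1OE corpses (adjusted p = 0.13, edgeR) and 0.37 ± 0.07 for control corpses (adjusted p = 0.000141). Hist1h2bn rose by 0.21 ± 0.06 (adjusted p = 0.011) and Hist1h2bb by 0.22 ± 0.08 (adjusted p = 0.0413) with control corpses. The call of Hist1h2bb was lost without any 1 of 6 libraries, control-corpse replicates 1 and 3 and each macrophage-alone replicate (adjusted p 0.00625 to 0.107).

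The H2B genes that fell were Hist1h2bc and Hist2h2be. Hist1h2bc, the most counted H2B gene, held 42.7, 41.9, 47.3 and 45.7 CPM with STC1OE corpses and 44.2, 41.5, 44.5 and 43.1 CPM with control corpses, against 54.1, 58.3, 56.3 and 57.7 CPM in macrophages alone. The corpse groups overlapped each other and not macrophages alone. The log2 fold change was −0.35 ± 0.04 with STC1OE corpses (adjusted p = 6.13e-09, edgeR) and −0.39 ± 0.04 with control corpses (adjusted p = 9.28e-10). Hist2h2be on chromosome 3 held 3.95, 4.35, 3.63 and 4.05 CPM with STC1OE corpses and 3.43, 3.51, 2.88 and 3.35 CPM with control corpses, against 5.00, 6.39, 6.44 and 6.60 CPM in macrophages alone. The 3 groups did not overlap, with control corpses lowest. The log2 fold change was −0.61 ± 0.10 with STC1OE corpses (adjusted p = 7.22e-06) and −0.89 ± 0.10 with control corpses (adjusted p = 1.43e-08), and 0.28 ± 0.11 between STC1OE and control corpses (adjusted p = 0.126).

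**Figure D3:**
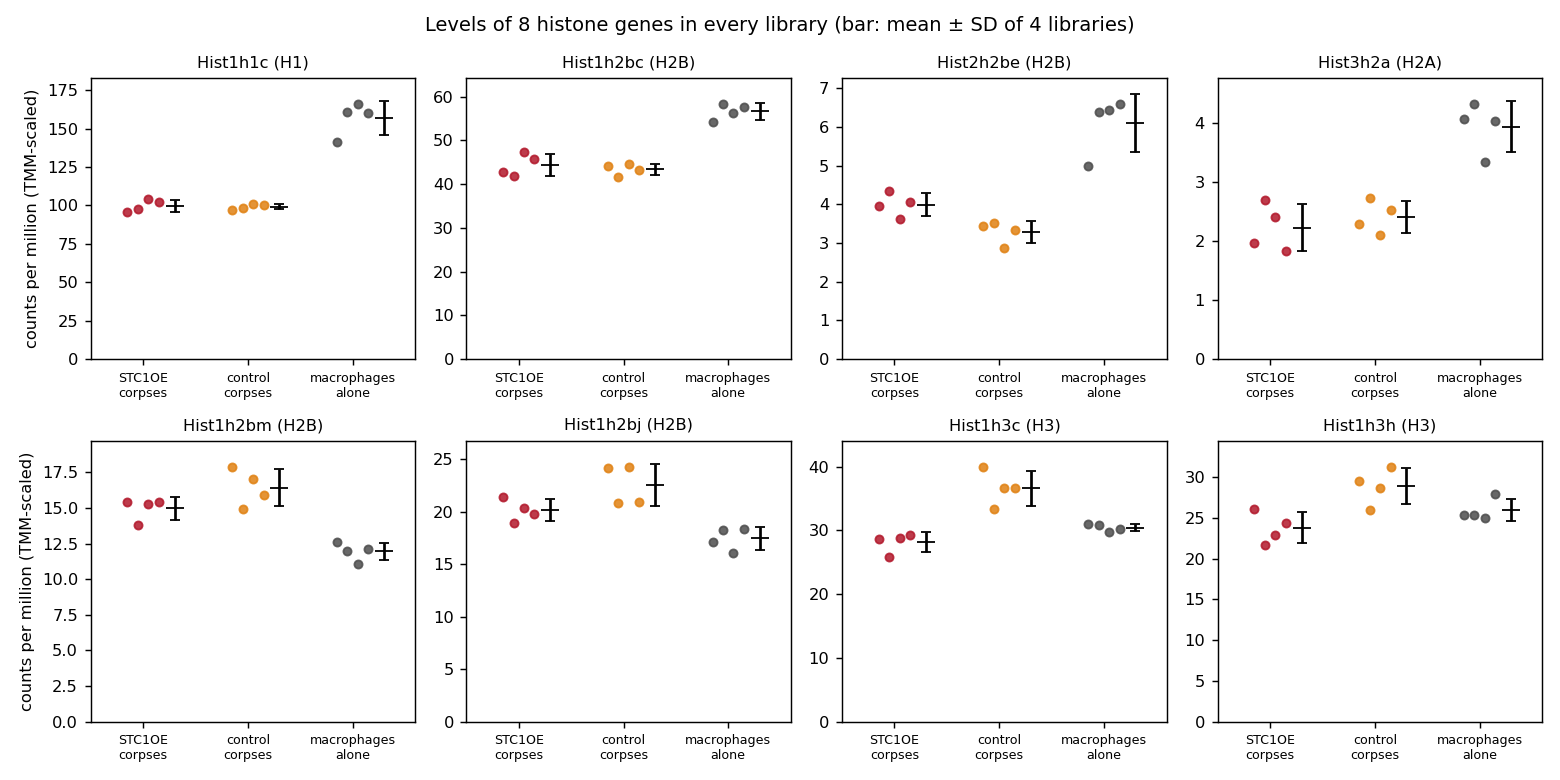
TMM-scaled CPM of 8 histone genes in every library (points; bar, mean ± SD of 4 libraries), with STC1OE corpses at left, control corpses in the middle and macrophages alone at right. In Hist1h1c, Hist1h2bc, Hist2h2be and Hist3h2a both corpse groups lie below macrophages alone, in Hist1h2bm and Hist1h2bj above, and in Hist1h3c all 4 STC1OE-corpse libraries lie below the control-corpse libraries.

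H3 carries many of the marked tail residues of chromatin. It held 5 of the 6 calls between the corpse groups, where 3.37% of all tested genes were higher and 2.11% lower. Of 10 members, none was higher and 5 were lower with STC1OE than with control corpses, and 9 had a negative log2 fold change. At an unadjusted p below 0.05, 0 were higher and 8 lower, and DESeq2 called 0 and 5. The class median was −0.22, beside −0.0061 over all tested genes. Hist1h3c had 28.7, 25.8, 28.8 and 29.3 CPM with STC1OE corpses, 40.0, 33.3, 36.6 and 36.6 CPM with control corpses and 31.0, 30.8, 29.7 and 30.3 CPM in macrophages alone. The 3 groups did not overlap. The log2 difference between STC1OE and control corpses was −0.38 ± 0.05 (adjusted p = 6.89e-06, edgeR; 3.4e-07 to 7.04e-05 over the leave-one-out fits). Against macrophages alone Hist1h3c rose with control corpses (0.27 ± 0.05, adjusted p = 2.34e-05) and not with STC1OE corpses (−0.11 ± 0.05, adjusted p = 0.0633).

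Hist1h3h had 26.1, 21.7, 22.9 and 24.4 CPM with STC1OE corpses, 29.5, 26, 28.7 and 31.3 CPM with control corpses and 25.4, 25.4, 25.0 and 28.0 CPM in macrophages alone. The highest STC1OE-corpse library just passed the lowest control-corpse library. The log2 difference between STC1OE and control corpses was −0.28 ± 0.06 (adjusted p = 0.00513, edgeR), and only 9.54% of its windows are its own. Hist1h3g (−0.31 ± 0.09, adjusted p = 0.0371), Hist1h3d (−0.23 ± 0.07, adjusted p = 0.044) and Hist1h3i (−0.20 ± 0.06, adjusted p = 0.035) were also lower, with overlapping groups. Against macrophages alone, 3 H3 members rose and 1 fell with control corpses, and besides Hist1h3c those that rose were Hist1h3i (0.15 ± 0.06, adjusted p = 0.0362) and Hist1h3h (0.15 ± 0.06, adjusted p = 0.0365). With STC1OE corpses 4 members fell and none rose, among them Hist1h3e (−0.20 ± 0.05, adjusted p = 0.00295), Hist1h3g (−0.33 ± 0.09, adjusted p = 0.00375) and Hist1h3d (−0.23 ± 0.07, adjusted p = 0.00661). Among all tested genes 19.7% rose and 20.4% fell with control corpses, and 21.4% rose and 22.4% fell with STC1OE corpses. Hist1h3f averaged 23.8 ± 2.59, 28.3 ± 2.31 and 25.6 ± 1.57 CPM with STC1OE corpses, with control corpses and alone, with no call.

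The 6 calls between the corpse groups depended on single libraries. Without STC1OE-corpse replicate 1 there were 11, without its replicate 2, 3 or 4 there were 3, without control-corpse replicate 1 there were 2, without its replicate 2 there were 12, and without its replicate 3 there were 3. Hist1h3c and Hist1h3h stayed called in each of these fits. The calls of Hist1h3i, Hist1h3g and Hist1h3d were each lost without STC1OE-corpse replicate 2, 3 or 4 or control-corpse replicate 1 or 3, reaching adjusted p of 0.12, 0.156 and 0.146. Those of Hist1h3i and Hist1h3d were also lost without macrophage-alone replicate 2 or 3, and that of Hist1h3d without control-corpse replicate 4 or macrophage-alone replicate 4, in DESeq2 and in a fit on the corpse groups alone. The calls of Hist1h3i and Hist1h3h with control corpses against macrophages alone were lost without control-corpse replicate 1 or macrophage-alone replicate 1, 2 or 3, that of Hist1h3i also without control-corpse replicate 3 and that of Hist1h3h without control-corpse replicate 4, reaching 0.131 and 0.133. The fall of Hist1h3d with STC1OE corpses was lost without STC1OE-corpse replicate 2 (adjusted p 0.00159 to 0.0538).

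**Figure D4:**
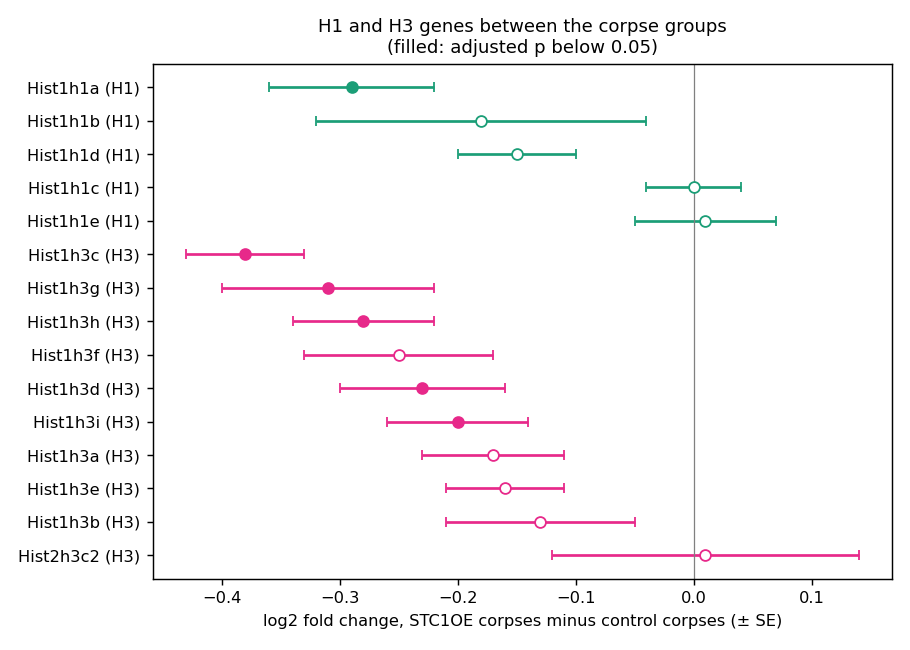
Log2 fold change, STC1OE minus control corpses, of the 5 H1 and 10 H3 genes (points with ± SE). Filled points passed an adjusted p of 0.05 in edgeR's test: Hist1h1a and 5 H3 genes, of which Hist1h3c lies lowest at −0.38, while Hist1h1c and Hist2h3c2 lie at 0.00 and 0.01.

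H4 binds H3 in the core of the nucleosome and was the most counted class. Of 12 genes, 1 rose and 4 fell with STC1OE corpses, and 2 rose and 3 fell with control corpses. Among all tested genes 21.4% rose and 22.4% fell with STC1OE corpses, and 19.7% rose and 20.4% fell with control corpses. No H4 gene passed between the corpse groups, where log2 fold changes ran from −0.16 to 0.10. At an unadjusted p below 0.05, 0 were higher and 2 lower there, and DESeq2 called 0. Hist1h4f had 42.2, 36.2, 37.6 and 33.9 CPM with STC1OE corpses and 41.9, 39.4, 41.5 and 39.0 CPM with control corpses, against 29.9, 33.6, 36.0 and 36.1 CPM in macrophages alone. Its control-corpse libraries lay above macrophages alone, and its STC1OE-corpse libraries overlapped both. It rose by 0.25 ± 0.07 with control corpses (adjusted p = 0.00656, edgeR), with 0.14 ± 0.07 for STC1OE corpses (adjusted p = 0.109).

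The H4 genes with the largest falls were Hist1h4i and Hist4h4. Hist1h4i had 5.49, 6.13, 5.22 and 6.83 CPM with STC1OE corpses and 4.4, 5.16, 5.88 and 6.78 CPM with control corpses, against 6.18, 8.36, 7.84 and 8.43 CPM in macrophages alone, where replicate 1 overlapped the corpse libraries. Its log2 fold change was −0.38 ± 0.12 with STC1OE corpses (adjusted p = 0.0177, edgeR) and −0.48 ± 0.12 with control corpses (adjusted p = 0.0041). The first call was lost without STC1OE-corpse replicate 1 or 3 or macrophage-alone replicate 2 or 4 (adjusted p 0.002 to 0.0692). Hist4h4, on chromosome 6, averaged 6.07 ± 0.280, 6.12 ± 0.773 and 7.65 ± 1.03 CPM with STC1OE corpses, with control corpses and alone, and fell by 0.34 ± 0.10 with STC1OE corpses (adjusted p = 0.00482) and by 0.32 ± 0.09 with control corpses (adjusted p = 0.00655).

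Hist1h4k fell with STC1OE corpses (−0.19 ± 0.05, adjusted p = 0.00377, edgeR) and Hist1h4c with control corpses (−0.13 ± 0.04, adjusted p = 0.0186). The call of Hist1h4c was lost without control-corpse replicate 2, 3 or 4 or macrophage-alone replicate 3 (adjusted p 0.000586 to 0.125). Hist1h4d, the most counted H4 gene, averaged 67.2 ± 4.29, 66 ± 6.3 and 70.2 ± 4.39 CPM with STC1OE corpses, with control corpses and alone, and Hist1h4h 39.6 ± 4.47, 42.0 ± 3.30 and 43.9 ± 5.03 CPM in these groups, with no call.

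With control corpses the calls of long and short annotated transcript ends, a feature that membership did not use, ran in opposite directions, and with STC1OE corpses falls outnumbered rises among long ends and equalled them among short ones. Among 20 tested genes with over 200 bases after the stop codon in the longest transcript, 1 rose and 11 fell with STC1OE corpses and 1 rose and 9 fell with control corpses. Among 30 tested genes with at most 200 bases, 4 rose and 4 fell with STC1OE corpses, and 12 rose and none fell with control corpses. Median log2 fold changes were −0.24 with STC1OE and −0.14 with control corpses in the long group, and −0.05 with STC1OE and 0.12 with control corpses in the short group. The length limit was chosen after values had been seen, and the split is a description without a test. Beside this and the splits below, 21.4% of all tested genes rose and 22.4% fell with STC1OE corpses. With control corpses these shares were 19.7% and 20.4%. With a limit of 100 bases, 2 rose and 12 fell above it and 3 rose and 3 fell below it with STC1OE corpses, and 4 rose and 9 fell above it and 9 rose and none fell below it with control corpses. With a limit of 500 bases, 1 rose and 8 fell above it and 4 rose and 7 fell below it with STC1OE corpses, so that falls outnumbered rises on both sides, and 1 rose and 7 fell above it and 12 rose and 2 fell below it with control corpses.

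The sum of the 22 long genes was 543 ± 23.2 CPM with STC1OE corpses, 559 ± 16.6 CPM with control corpses and 650 ± 36.5 CPM in macrophages alone, and that of the 31 short genes 490 ± 31.1 CPM with STC1OE corpses, 547 ± 33.1 CPM with control corpses and 498 ± 11.1 CPM alone. The only long gene called as risen was Hist1h2be, which shares exon with Hist1h1e. Of 20 tested long genes, 8 were not called with STC1OE corpses and 10 were not called with control corpses. Of the 6 calls between the corpse groups, 1 was in a long gene, Hist1h3d, and 5 in short ones. Where at least 80% of a gene's windows were its own, 15 long and 8 short genes were tested. Of these long genes 1 rose and 8 fell with STC1OE corpses, and 1 rose and 7 fell with control corpses. Of these short genes 1 rose and 1 fell with STC1OE corpses, and 4 rose and none fell with control corpses. A poly(A) signal in the last 50 bases was found in 13 tested genes, of which 1 rose and 7 fell with STC1OE corpses and 2 rose and 5 fell with control corpses. Of 37 without one, 4 rose and 8 fell with STC1OE corpses, and 11 rose and 4 fell with control corpses. Outside chromosome 13, 6 genes were tested; none rose, 5 fell with STC1OE corpses and 4 with control corpses. On chromosome 13, of 44 tested, 5 rose and 10 fell with STC1OE corpses, and 13 rose and 5 fell with control corpses.

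**Figure D5:**
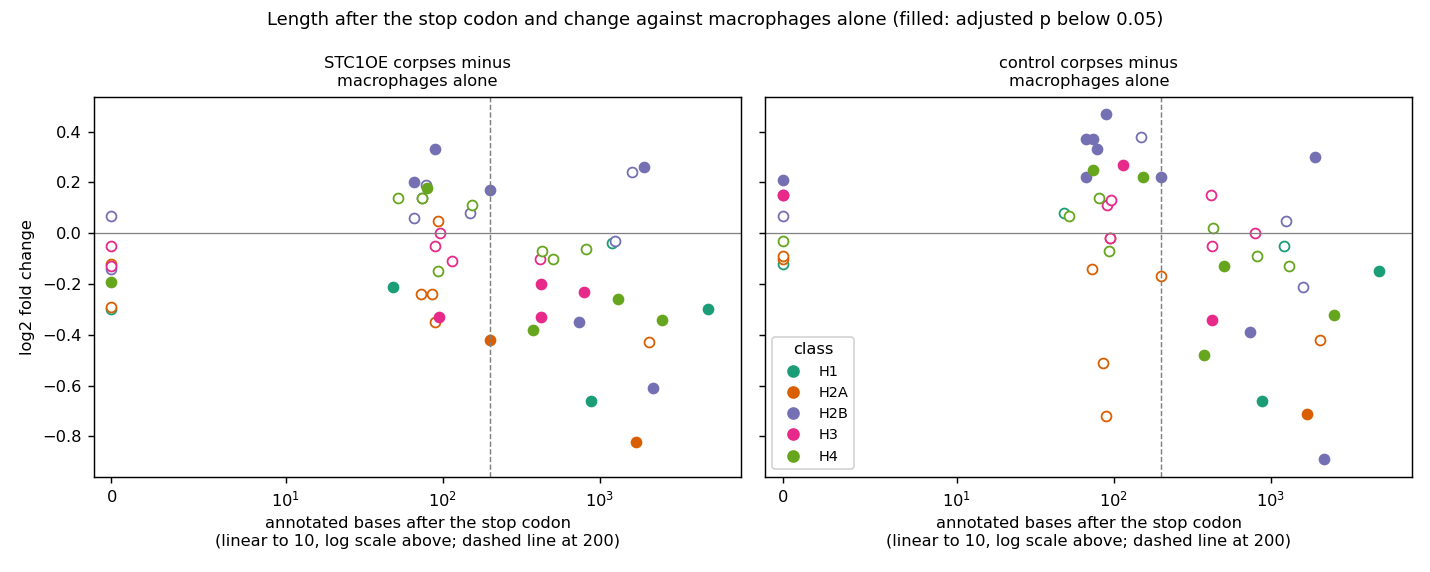
Annotated bases after the stop codon of each tested histone gene (linear to 10 bases, log scale above) against its log2 fold change, for STC1OE corpses minus macrophages alone at left and control corpses minus macrophages alone at right. Filled points passed an adjusted p of 0.05 and colours are classes: right of the dashed line at 200 bases 11 genes fell at left and 9 at right, with 1 risen in each.

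Genes of the histone mRNA pathway, of S phase, of histone variants and of chaperones were taken from lists. Their counts stand beside 21.4% of all tested genes that rose and 22.4% that fell with STC1OE corpses, and 19.7% and 20.4% with control corpses. Between the corpse groups, 3.37% of all tested genes were higher and 2.11% lower with STC1OE corpses. Of 22 genes for transcription and end processing of histone mRNA, 7 rose and 6 fell with STC1OE corpses, 8 rose and 3 fell with control corpses, and 3 were lower between the corpse groups. Slbp averaged 20.2 ± 0.602 CPM with STC1OE corpses, 22.0 ± 0.752 CPM with control corpses and 22.1 ± 0.758 CPM alone. It fell with STC1OE corpses (−0.13 ± 0.05, adjusted p = 0.0205, edgeR). Ccne2, a cyclin whose kinase partner Cdk2 activates NPAT, was lower with STC1OE than with control corpses (−0.32 ± 0.06, adjusted p = 0.00254), as were Casp8ap2, a histone locus body protein (−0.20 ± 0.04, adjusted p = 0.00357), and Cdk2 (−0.16 ± 0.04, adjusted p = 0.0226). Hinfp, an activator of H4 transcription, fell with STC1OE corpses (−0.31 ± 0.06, adjusted p = 0.000148) and with control corpses (−0.27 ± 0.06, adjusted p = 0.000514). Ccne1, the other E cyclin, rose with STC1OE corpses (0.25, adjusted p = 0.0171) and with control corpses (0.36, adjusted p = 0.000738). Npat itself averaged 23.2 ± 0.859 CPM with STC1OE corpses, 23.8 ± 1.61 CPM with control corpses and 23.0 ± 0.646 CPM alone, with no call.

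Of 28 S phase and DNA replication genes, 10 rose and 4 fell with STC1OE corpses, and 20 rose and 1 fell with control corpses. None was higher and 19 were lower with STC1OE than with control corpses, where 3.37% of all tested genes were higher and 2.11% lower. The helicase genes Mcm2 (0.38 ± 0.05 with STC1OE and 0.53 ± 0.05 with control corpses, adjusted p = 2.14e-06 and 2.29e-08) and Cdc45 (0.35 ± 0.07 with STC1OE and 0.61 ± 0.07 with control corpses, adjusted p = 6.73e-05 and 4.57e-09) rose. Slbp is on this list as well. The replication initiation gene Mcm10 (−0.32 ± 0.06, adjusted p = 0.00151, edgeR) and the polymerase gene Pole (−0.30 ± 0.05, adjusted p = 0.000279) were among the lowest between the corpse groups. These values stand beside the lower H3 genes, and their part in that difference was not tested.

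Of 10 tested genes on the list of histone variants, most of which are made outside S phase with poly(A) tails, 1 rose and 6 fell with STC1OE corpses, 1 rose and 5 fell with control corpses, and 0 passed between the corpse groups. Cenpa, the centromeric H3 variant, fell by 0.84 ± 0.06 with STC1OE corpses (adjusted p = 1.9e-13, edgeR) and by 0.68 ± 0.06 with control corpses (adjusted p = 1.97e-11), on the log2 scale. H2afv, an H2A.Z gene, fell by 0.64 ± 0.10 with STC1OE corpses (adjusted p = 2.4e-06) and by 0.73 ± 0.10 with control corpses (adjusted p = 2.49e-07). H3f3a, which encodes the replacement histone H3.3, fell by 0.35 ± 0.04 with STC1OE corpses (adjusted p = 9.98e-09) and by 0.41 ± 0.04 with control corpses (adjusted p = 2.87e-10). Of 12 histone chaperones, 3 rose and 3 fell with STC1OE corpses and 3 rose and 2 fell with control corpses, near the shares of all tested genes. Chaf1a, of the chaperone that deposits H3 and H4 at replication forks, rose (0.27 ± 0.05 with STC1OE corpses, adjusted p = 0.00013, and 0.42 ± 0.05 with control corpses, adjusted p = 1.44e-07). Atrx, of the complex that deposits H3.3, fell (−0.41 ± 0.03 with STC1OE corpses, adjusted p = 1.48e-11, and −0.29 ± 0.03 with control corpses, adjusted p = 1.56e-08) and was lower with STC1OE than with control corpses (−0.12 ± 0.03, adjusted p = 0.0287).

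Of 16 RNAs made without a poly(A) tail, 7 were tested. With STC1OE corpses 2 were higher than in macrophages alone, Rn7s2 (1.24 against 0.582 CPM) and Snord118 (0.924 against 0.595 CPM). With control corpses 1 was lower, Scarna2, and 1 was higher with STC1OE than with control corpses, Rn7s2. Among all tested genes 21.4% rose with STC1OE corpses, 20.4% fell with control corpses and 3.37% were higher between the corpse groups. Rn7sk, the most abundant RNA of the list, had 6440, 5510, 7490 and 7400 CPM with STC1OE corpses, 6470, 5270, 4650 and 5040 CPM with control corpses and 7200, 7400, 6780 and 5860 CPM in macrophages alone. The groups overlapped and no comparison passed (log2 −0.02 ± 0.13, −0.35 ± 0.13 and 0.32 ± 0.13 for STC1OE corpses against alone, control corpses against alone and STC1OE against control corpses, adjusted p = 0.918, 0.0647 and 0.217, edgeR). The part of tailless RNA in the histone counts was not tested.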

How the data were processed

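RNA was sequenced from 12 libraries in 3 groups of 4, grouped by their labels. What the authors deposited are whole-number gene counts, not normalized. Per the submitters' processing notes the authors used HISAT2, HTSeq and DESeq2 with builds mm10 and GRCm38; versions, annotation and strand use are not stated there. Lines naming no gene were left out, among them 10.55% to 14.69% of reads with no feature. Symbols came from GENCODE M21 by identifier without version (54809 matched, 795 did not). The members and lists were chosen with earlier results of these data known.

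Counts were fitted in R 4.3.3 with edgeR 4.0.16: filterByExpr (minimum count 10, total 15), TMM factors, robust quasi-likelihood over all 12 libraries, two-sided, Benjamini-Hochberg over 16406 genes, threshold 0.05; the common coefficient of variation was 4.53%. CPM are TMM-scaled. The fit was also run on simulated counts that gave every gene the common coefficient of variation and no resemblance between libraries. That run cannot show error rates for the real libraries, where some resembled each other. Replicates differed by more than counting noise, so none was merged. Named members were the 5 most counted per class and up to 8 called members per comparison with the largest change and at least 0.5 CPM; list genes were up to 3 called per list and comparison from 2 CPM. Hist2h3c2, Slbp, Npat, Rn7sk, Rn7s2 and Snord118 were named after their values were seen. Alternatives were other scalings (RLE, upper quartile, total counts), no filter, DESeq2 1.42.0, a fit on each pair of groups, a replicate block, a test against 1.2-fold, each library left out, replicates 1 and 2 or 3 and 4, and minimum totals of 20 and 200. The value of 1 marker gene is not reported here.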

Additional observations from a re-analysis of the deposited data

Results flagged for a closer look

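With 33 named members and 6 class sums in 3 groups of 4 libraries, 117 groups were examined for 1 library far from the other 3, and 7 stood out; chance picks about 1 in 20. With STC1OE corpses, replicate 2 was low for the sum of all members (955 CPM), for the H2B sum (204 CPM) and for Hist1h2bm (13.8 CPM). With control corpses, Hist1h1d was low in replicate 2 (47.5 CPM). In macrophages alone, replicate 1 was low for Hist1h1e (50.9 CPM) and Hist2h2be (5.00 CPM), and replicate 4 was high for Hist1h3h (28.0 CPM). No library was left out of the main values.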

How the results depend on the processing

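Named members kept the direction of each call under every alternative run; 28 of 42 named calls held in each fit with 1 library left out, and 9 held in all alternatives, which include the test against 1.2-fold. That test left 0 members higher and 4 lower with STC1OE corpses, 1 and 4 with control corpses, and 0 and 0 between STC1OE and control corpses. Of all 16406 genes it left 904 and 1209, 738 and 950, and 2 and 2. Scaling by total counts gave 2 higher with STC1OE corpses and 13 lower between the corpse groups, where 2386 and 902 of 16406 genes were so called. The median of all tested genes was then −0.1 for STC1OE corpses against macrophages alone. With no low-count filter 14 members were lower between the corpse groups, and 451 of 29856 genes. Replicates 1 and 2 alone gave 2 higher and 9 lower with STC1OE corpses, 8 higher with control corpses and 1 lower between the corpse groups. The counts over all 16508 genes were 2257, 2395, 1999 and 6. Replicates 3 and 4 alone gave 2 higher and 11 lower between the corpse groups, where 1299 and 627 of 16576 genes were called. With 1 library left out, members higher and lower ranged from 3 to 9 and 12 to 17 with STC1OE corpses, 9 to 16 and 7 to 11 with control corpses, and 0 to 0 and 2 to 12 between the corpse groups. The cause was not tested. Minimum totals of 20 and 200 counts changed no count by over 1.5 times. Class sums moved by less than their SD under every scaling and left-out library.

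Replicate numbers did not pair the libraries: deviations of same-numbered libraries correlated at −0.383 to 0.321, over 0.1 in 5 of 12 pairs, and 4 of 12 libraries correlated best with their own number. A replicate block gave 6 higher and 17 lower with STC1OE corpses, 13 and 10 with control corpses, and 0 and 9 between the corpse groups. Of all 16406 genes it called 3551 and 3744, 3294 and 3422, and 677 and 409. Among the named calls the block ended 1, the lower Hist1h3g with STC1OE than with control corpses (−0.31, adjusted p = 0.0681 in edgeR, and 0.00269 to 1 over all alternatives). The 9 tested H2A members had SE of 0.13 to 0.33 on the log2 scale, so small changes in them were not detectable at this depth.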
